A study of Mus musculus with 6 samples.

Results

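The genes described here build ribosomes in the nucleolus. There are 40 of them, chosen by name from the 23060 gene names of a deposited expression table, and all 40 were found there. They cover transcription of ribosomal RNA by RNA polymerase I, the small nucleolar RNA-protein particles (snoRNPs) that modify and help to cut it, the factors that assemble the small and the large ribosomal subunit, and abundant nucleolar proteins. The libraries were 3 from tachypaced and 3 from control cultures, all of wild-type (WT) cells with the label HL-1. HL-1 is a line derived from mouse atrial heart muscle, and all 6 cultures were grown in Claycomb medium with serum, norepinephrine and L-glutamine. Tachypacing drives cells with fast electrical pulses, a culture model of the atrial rate in atrial fibrillation. Neither the pacing rate nor its length is stated in the labels. The study asked which transcripts of atrial myocytes it alters. Whether replicates come from separate cultures is not stated, so p-values here reflect only library-to-library spread, possibly technical.

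The nucleolus forms around active ribosomal DNA repeats. RNA polymerase I copies each repeat into 1 long precursor, from which the RNAs of the small subunit and most of those of the large subunit are cut, while box C/D particles guide methylation and box H/ACA particles guide pseudouridylation of the same molecule. Making ribosomes is among the most costly tasks of a growing cell, and in heart muscle it accompanies growth of the myocyte under load.

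The labelled cell type was not borne out by its markers. Of 14 cardiomyocyte markers, 10 to 12 were listed at 0 in tachypaced and 10 in control libraries. Among them were atrial myosin Myh6, cardiac actin Actc1 and the transcription factors Nkx2-5 and Gata4. The summed level of the 14 ran from 3.72 to 4.002 FPKM in tachypaced and from 3.19 to 4.0 FPKM in control libraries. Most of it was Tnni3, at 3.51, 3.61 and 3.64 FPKM in tachypaced and 3.29, 3.57 and 2.78 FPKM in control libraries. FPKM is a fragment count scaled by transcript length and by the library's mapped total, so levels of different genes can be set against each other on this scale. The summed level of 12 macrophage markers ran from 1392 to 1551 FPKM in tachypaced libraries and from 1090.3 to 1259.7 FPKM in control libraries, with Mrc1, C1qa and C1qb at 0 throughout, and 3 of the 8 that could be tested rose (Lyz2, Cd14 and Ctss). Over all genes 2.30% rose. Without control replicate 1, 7 of the 8 rose, where 11.2% of all genes rose. Without any other single library at most 3 genes of the whole table rose. The part of these markers in the results on nucleolar genes was not tested. Fibroblast and endothelial markers summed to at most 0.144 and 1.93 FPKM in any library. Read depth is unknown, because the values carry no counts. In 58.7% of the 10361 genes tested, control replicate 1 lay nearer to the tachypaced mean than to the mean of the other 2 controls. This share was not computed for any other library. Results are also given without control replicate 1. Leaving out a control that lies near the other group tends to raise the number of genes called. Results without it are therefore a description of this dependence and no separate support.

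None of the 40 nucleolar genes passed the test in either direction in tachypaced against control libraries. The test was limma on log2(FPKM + 1) over the 10361 genes whose mean reached 1 FPKM, with Benjamini-Hochberg adjustment and a threshold of 0.05, and all 40 were above that minimum. By the same test 5.52% of all genes were called, 2.30% higher and 3.22% lower. At an unadjusted p below 0.05 there were 10 of 40 (4 higher, 6 lower), or 25.0%, against 30.2% of all genes (10.8% higher, 19.4% lower). Groups without overlap were seen in 10 of the 40, 5 in each direction, against 34.9% of all genes (12.6% higher, 22.4% lower). The median log2 fold change of the 40 was -0.04, and that of all tested genes was also -0.04, with 17 positive and 23 negative values between -0.35 and 0.25. In bulk RNA, fewer cells of a type and less RNA per cell cannot be told apart.

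The intervals say how large a change the spread between these libraries could hide. If the replicates are technical, they do not bound the effect of tachypacing. For 37 of the 40 genes the 95% interval of the log2 fold change lay wholly within 0.5 of 0, a 1.41-fold change of FPKM + 1. The same held for 8951 of the 10361 genes tested. The exceptions among the 40 were Bop1 with -0.62 to -0.08, Noc2l with -0.55 to -0.06 and Wdr12 with -0.15 to 0.59, all in the large subunit group. Without control replicate 1, the intervals of Rrn3 (-0.53 to -0.22) and Nop58 (0.01 to 0.51) also went beyond 0.5. In genes of low level the same bound allows a larger change of FPKM itself. Standard errors with all libraries ran from 0.05 to 0.16. With 3 libraries a side, the smallest p of an exact permutation test is 0.1, so none is given.

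**Figure D1:**
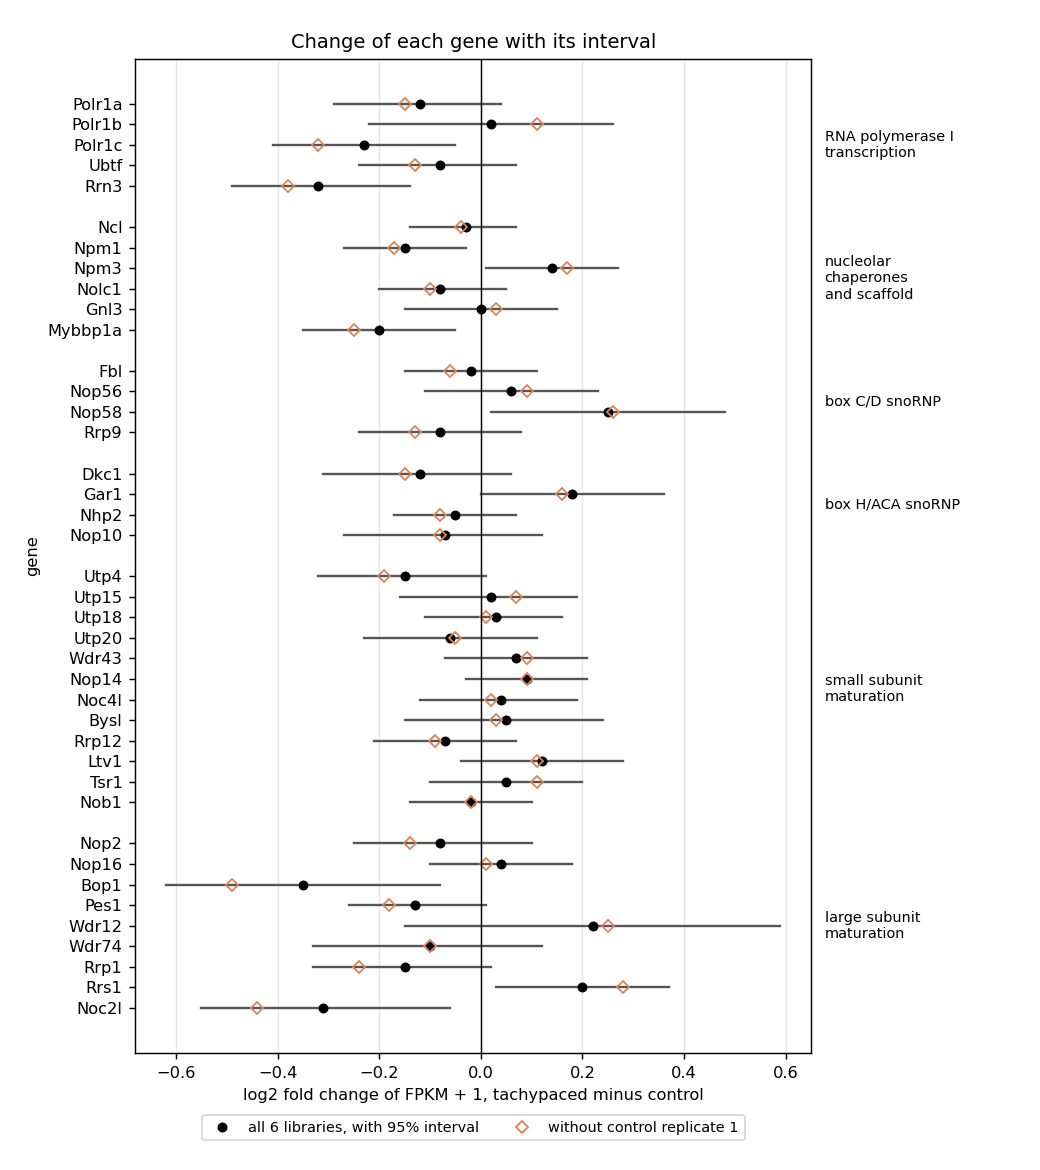
Log2 fold change of FPKM + 1 for each of the 40 genes, tachypaced minus control, by role. Black points and bars are the estimate and 95% interval from all 6 libraries, open orange diamonds the estimate without control replicate 1. Estimates lie between -0.35 and 0.25, and 37 of 40 intervals stay within 0.5 of 0, as do 8951 of 10361 over all tested genes.

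Without control replicate 1, 9 of the 40 passed (22.5%), against 30.0% of all genes tested (11.2% higher, 18.8% lower). Only Rrs1 was higher among the 9, and Polr1c, Rrn3, Npm1, Mybbp1a, Bop1, Pes1, Rrp1 and Noc2l were lower. This library was nearer to the tachypaced mean than to the other controls in 24 of the 40 genes, or 60.0%, close to its share over all genes. The count for all genes thus grew with that of the 40.

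Promoter sequences are shown for 3 genes among those with an unadjusted p below 0.05, 1 lower (Rrn3) and 2 higher (Nop58 and Gar1), as examples with one of the 2 motifs searched in the stretch. Among the same 10 genes, the windows of Polr1c, Npm3 and Noc2l also hold CCGGAA, that of Mybbp1a holds CACGTG and that of Rrn3 holds both, while Npm1, Bop1 and Rrs1 had no window. The lines give the coding strand 5′ to 3′, taken from RefSeq promoters on GRCm38.p6 and limited to 120 bases that lie outside annotated exons. Capitals mark CACGTG, the E-box that MYC with MAX can bind and that reads the same on both strands, or CCGGAA and its complement TTCCGG, a core that ETS family factors can bind.
Rrn3 (chr16:13780579-13780698, plus strand): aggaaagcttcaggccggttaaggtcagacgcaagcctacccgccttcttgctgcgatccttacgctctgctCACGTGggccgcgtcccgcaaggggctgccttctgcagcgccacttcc
Nop58 (chr1:59684851-59684970, plus strand): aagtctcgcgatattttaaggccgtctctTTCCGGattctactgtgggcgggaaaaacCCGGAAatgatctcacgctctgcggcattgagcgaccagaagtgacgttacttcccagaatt
Gar1 (chr3:129831397-129831516, minus strand): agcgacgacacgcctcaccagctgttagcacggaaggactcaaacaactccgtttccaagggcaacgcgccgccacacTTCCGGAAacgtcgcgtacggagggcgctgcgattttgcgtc
In Gar1 both forms of the ETS core overlap in 1 palindrome.

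RefSeq windows from 250 bases before to 50 after the start were at hand for 35 of the 40 genes. CACGTG was in a window of 10 of the 35, or 28.6%, against 12.5% of the tested genes with a window and 8.09% of all genes with one. CCGGAA on either strand was in 17 of the 35, or 48.6%, against 34.9% and 16.7% in the same sets. In a longer list of other pathway genes, described below, 105 had a window. Of these, 16.2% held CACGTG and 58.1% held CCGGAA. Among the 35, the ranges of change with and without a motif overlapped but were not the same. The median log2 fold change was -0.07 for the 10 with CACGTG (-0.32 to 0.12) and -0.02 for the 25 without (-0.31 to 0.25). It was -0.05 for the 17 with CCGGAA (-0.32 to 0.25) and -0.03 for the 18 without (-0.20 to 0.22). A match in these windows is a description of the letters and shows no binding.

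Myc, the transcription factor best known for driving ribosome biogenesis genes (chromosome 15, 61985391 to 61990374, GRCm38), stood at 7.69, 8.42 and 8.51 FPKM in tachypaced libraries and at 8.56, 8.16 and 7.50 FPKM in control libraries. The groups overlapped, and the log2 fold change was 0.02 (interval -0.14 to 0.19, limma adjusted p = 0.865), a value that changed sign with a common FPKM total. Its partner Max averaged 55.9 ± 3.62 FPKM in tachypaced and 59.0 ± 2.55 FPKM in control libraries (SD, n = 3 each). Of the MYC network, 8 of 9 genes could be tested and 0 passed, with 3 at an unadjusted p below 0.05, all lower, against 30.2% of all genes (19.4% lower). Without control replicate 1, 4 of 9 tested fell (Mlx, Mxd3, Mxi1 and Mxd4), where 18.8% of all genes fell. The 3 were Mxd4 and Mxi1, which encode MAX partners that oppose MYC, and Mlx, a related partner. Mxd4 averaged 5.77 ± 0.993 FPKM in tachypaced and 9.05 ± 1.79 FPKM in control libraries (SD, n = 3 each; log2 fold change -0.57, limma adjusted p = 0.0533).

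In level, the 40 genes spread over a ratio of 269. Npm1, the histone chaperone nucleophosmin, was highest with a mean of 939 FPKM over the 6 libraries and held 45.2% of the summed FPKM of the 40. Polr1b, the second largest subunit of RNA polymerase I, was lowest with 3.49 FPKM. The median over the 40 was 19.3 FPKM, against 10.7 FPKM over all tested genes. Together the 40 made up 0.463% to 0.534% of the table total per library. Their summed level was 1994, 2003 and 2023 FPKM in tachypaced libraries, against 2074, 2129 and 2225 FPKM in control libraries. These sums did not overlap, but Npm1 weighs heavily in them, and the sums of the other genes without it overlapped. The difference between the groups in these sums was not tested.

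**Figure D2:**
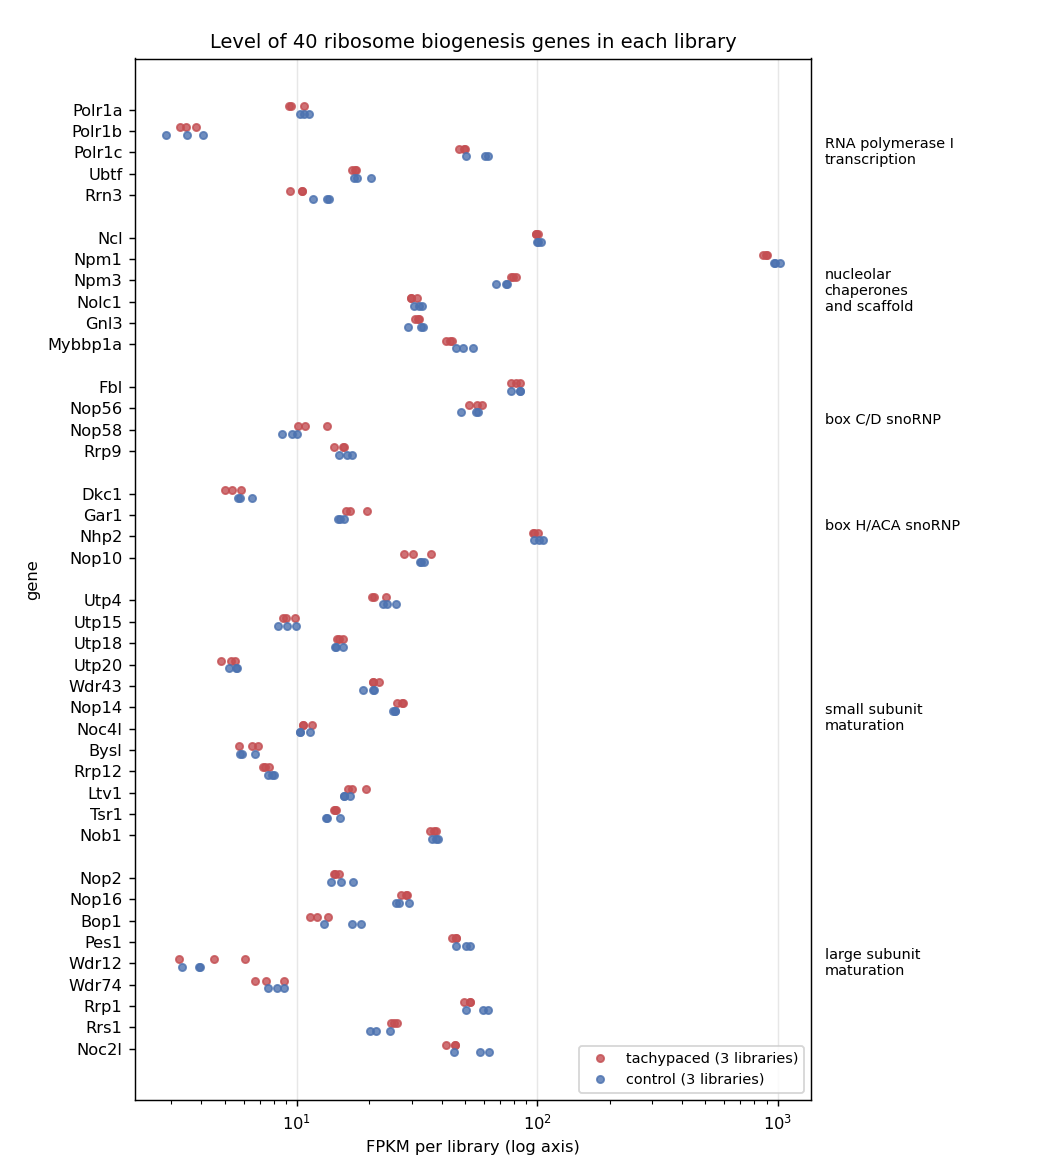
FPKM of the 40 genes in each library on a log axis, by role. Each point is 1 library, tachypaced in red above control in blue. Levels of different genes lie far apart, up to 939 FPKM for Npm1 and down to 3.49 FPKM for Polr1b as means of 6 libraries, while the 2 groups lie close together in every row.

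The 5 RNA polymerase I genes had the lowest median log2 fold change of the 6 role groups, -0.12, and 0 of 5 passed. Rrn3 encodes the initiation factor that makes polymerase I able to start and whose activity follows growth signals (chromosome 16, 13780708 to 13814839, GRCm38). It stood at 9.39, 10.5 and 10.5 FPKM in tachypaced libraries, against 11.7, 13.3 and 13.6 FPKM in control libraries. All 3 tachypaced values were below all 3 control values. Its log2 fold change was -0.32 (SE 0.08, limma adjusted p = 0.0502), at the edge of the threshold, with adjusted p between 0.00566 and 0.174 over the alternatives. It passed in 7 of the 16 alternatives, and in none of the 5 that left out a library other than control replicate 1.

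Polr1c, a subunit shared by RNA polymerases I and III (chromosome 17, 46243920 to 46248054, GRCm38), stood at 47.1, 49.7 and 50.2 FPKM in tachypaced libraries and 50.5, 60.6 and 62.4 FPKM in control libraries. The groups did not overlap, but control replicate 1 lay just above the highest tachypaced library. The log2 fold change was -0.23 (SE 0.08, limma adjusted p = 0.0989), and -0.32 without control replicate 1 (adjusted p = 0.00266). The catalytic subunit gene Polr1a averaged 9.81 ± 0.744 FPKM in tachypaced and 10.7 ± 0.463 FPKM in control libraries (SD, n = 3 each), with overlapping groups. For Polr1b the means were 3.51 ± 0.268 and 3.47 ± 0.609 FPKM in the same order. Ubtf, which encodes the factor that keeps ribosomal DNA open, averaged 17.3 ± 0.300 FPKM in tachypaced and 18.5 ± 1.63 FPKM in control libraries.

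Among 6 genes of nucleolar chaperones and scaffold proteins, 0 passed. Npm1 (chromosome 11, 33152287 to 33163206, GRCm38) stood at 897, 866 and 907 FPKM in tachypaced libraries, against 964, 971 and 1028 FPKM in control libraries. The groups did not overlap, and the log2 fold change was -0.15 (SE 0.05, limma adjusted p = 0.0962). Its relative Npm3 (chromosome 19, 45747734 to 45749591) lay the other way, at 79.4, 81.5 and 77.5 FPKM in tachypaced libraries and 75.1, 74.2 and 67.3 FPKM in control libraries. There too the groups did not overlap, with a log2 fold change of 0.14 (SE 0.06, limma adjusted p = 0.151). Mybbp1a, a nucleolar MYB-binding protein that restrains ribosomal RNA synthesis, stood at 41.8, 44.3 and 43.2 FPKM in tachypaced libraries and at 46.1, 49.0 and 54.1 FPKM in control libraries. All tachypaced values were the lower ones, with a log2 fold change of -0.20 (SE 0.07, limma adjusted p = 0.0900).

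The other 3 of this group overlapped between groups. Ncl, nucleolin, an RNA-binding protein of the nucleolus, averaged 99.3 ± 0.883 FPKM in tachypaced and 102 ± 2.20 FPKM in control libraries (SD, n = 3 each), with an interval of -0.14 to 0.07 on the log2 scale. Nolc1, a chaperone of snoRNPs, averaged 30.3 ± 1.05 and 32.1 ± 1.13 FPKM in tachypaced and control libraries. Gnl3, nucleostemin, a GTP-binding protein abundant in dividing cells, averaged 31.7 ± 0.564 FPKM in tachypaced and 31.7 ± 2.48 FPKM in control libraries.

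The box C/D proteins form the particle that methylates ribosomal RNA, and 0 of 4 passed. Nop58, a core scaffold (chromosome 1, 59684971 to 59719044, GRCm38), stood at 10.1, 13.3 and 10.8 FPKM in tachypaced libraries, against 9.54, 9.97 and 8.68 FPKM in control libraries. The tachypaced values were all higher, with tachypaced replicate 2 well above the other 2. The log2 fold change was 0.25 (SE 0.10, limma adjusted p = 0.135), and 0.14 without tachypaced replicate 2. Nop56, the paralogous scaffold, averaged 55.7 ± 3.50 FPKM in tachypaced and 53.5 ± 4.76 FPKM in control libraries, and the methyltransferase gene Fbl 81.4 ± 3.50 and 82.4 ± 4.12 FPKM (SD, n = 3 each). Rrp9, specific to the U3 particle that guides precursor cleavage, stood at 14.2, 15.7 and 15.5 FPKM in tachypaced libraries and at 14.9, 16.2 and 17.0 FPKM in control libraries, with overlapping groups (limma adjusted p = 0.457). Although Fbl, Nop56 and Nop58 proteins sit in 1 particle, their mean transcript levels differed by a ratio of 7.87, with Fbl highest and Nop58 lowest in every library.

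The 4 box H/ACA proteins make up the pseudouridylation particle, and 0 of 4 passed. Gar1 (chromosome 3, 129824912 to 129831396, GRCm38) stood at 16.0, 19.6 and 16.7 FPKM in tachypaced libraries and at 14.8, 15.1 and 15.7 FPKM in control libraries. These groups did not overlap, and tachypaced replicate 2 was again the highest. The log2 fold change was 0.18 (SE 0.08, limma adjusted p = 0.160), and 0.10 without that library. Dkc1, the pseudouridine synthase dyskerin (chromosome X, 75095854 to 75109777), stood at 5.38, 5.02 and 5.87 FPKM in tachypaced libraries and 5.78, 5.71 and 6.50 FPKM in control libraries, with overlapping groups. Nhp2 averaged 98.3 ± 2.69 FPKM in tachypaced and 102 ± 4.68 FPKM in control libraries, and Nop10 averaged 31.5 ± 4.10 and 33.0 ± 0.658 FPKM (SD, n = 3 each). The order Nhp2, Nop10, Gar1, Dkc1 held in every library, and the means of Nhp2 and Dkc1 differed by a ratio of 17.5.

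The 12 small subunit factors lay closest together. None passed or had an unadjusted p below 0.05, 8 log2 fold changes were positive and 4 negative, and all ran from -0.15 to 0.12. Utp4, a component of the processome that folds and cuts the nascent precursor (chromosome 8, 106893636 to 106923088), stood at 23.5, 20.5 and 20.9 FPKM in tachypaced libraries and at 22.9, 23.6 and 25.9 FPKM in control libraries. Ltv1, a late factor bound to the immature small subunit (chromosome 10, 13178140 to 13193168), stood at 16.9, 19.3 and 16.3 FPKM in tachypaced libraries, against 15.7, 15.7 and 16.7 FPKM in control libraries. Both groups of values overlapped, with limma adjusted p = 0.193 for Utp4 and 0.289 for Ltv1. Nop14, another processome component, had the only groups here that did not overlap, at 27.1 ± 0.763 FPKM in tachypaced and 25.4 ± 0.195 FPKM in control libraries (SD, n = 3 each; limma adjusted p = 0.268).

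The processome genes Utp15, Utp18, Utp20 and Wdr43 had log2 fold changes of 0.02, 0.03, -0.06 and 0.07. Noc4l, which acts with Nop14 in small subunit export, had 0.04. Bysl and Rrp12, which act on late small subunit precursors, had 0.05 and -0.07, and Tsr1, a GTPase-like factor of the same stage, had 0.05. Nob1, the endonuclease that makes the final cut of the small subunit RNA, had -0.02, at 37.0 ± 1.11 FPKM in tachypaced and 37.6 ± 1.10 FPKM in control libraries (SD, n = 3 each).

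The 9 large subunit factors varied most among themselves, with log2 fold changes from -0.35 to 0.22, and 0 passed. PES1, BOP1 and WDR12 proteins form 1 complex that large subunit maturation needs. Bop1 (chromosome 15, 76452989 to 76477277, GRCm38) stood at 11.3, 13.5 and 12.1 FPKM in tachypaced libraries and at 12.9, 16.9 and 18.4 FPKM in control libraries. Control replicate 1 fell inside the tachypaced range, so the groups overlapped. The log2 fold change of -0.35 (SE 0.12, limma adjusted p = 0.0957) became -0.49 without that library (adjusted p = 0.00347). Pes1 averaged 45.3 ± 0.928 FPKM in tachypaced and 49.7 ± 3.19 FPKM in control libraries (SD, n = 3 each), with no overlap and limma adjusted p = 0.184. Wdr12 stood at 3.24, 6.10 and 4.51 FPKM in tachypaced libraries and 3.94, 3.93 and 3.34 FPKM in control libraries. Its tachypaced values both exceeded and undercut the controls, and no other gene of the 40 had so large a standard error (0.16).

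Noc2l, a factor that accompanies large subunit precursors out of the nucleolus (chromosome 4, 156236010 to 156247616), stood at 41.8, 45.4 and 45.3 FPKM in tachypaced libraries, against 45.2, 57.7 and 63.2 FPKM in control libraries. Control replicate 1 again lay among the tachypaced values. The log2 fold change was -0.31 (SE 0.11, limma adjusted p = 0.102), and -0.44 without that library (adjusted p = 0.00176). Rrp1, a large subunit factor of the nucleolus, showed the same arrangement, with 49.7, 52.4 and 52.6 FPKM in tachypaced and 50.7, 59.6 and 62.6 FPKM in control libraries. Rrs1, which helps to load the 5S particle, lay the other way (chromosome 1, 9545408 to 9547455). It stood at 24.6, 25.4 and 26.2 FPKM in tachypaced libraries and 24.5, 21.4 and 20.2 FPKM in control libraries, a log2 fold change of 0.20 (SE 0.08, limma adjusted p = 0.118). The groups met without overlapping, since control replicate 1 stood just below the lowest tachypaced value. Nop2, an RNA methyltransferase, had -0.08 (groups overlapping), Nop16 0.04 and Wdr74 -0.10 on the log2 scale.

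**Figure D3:**
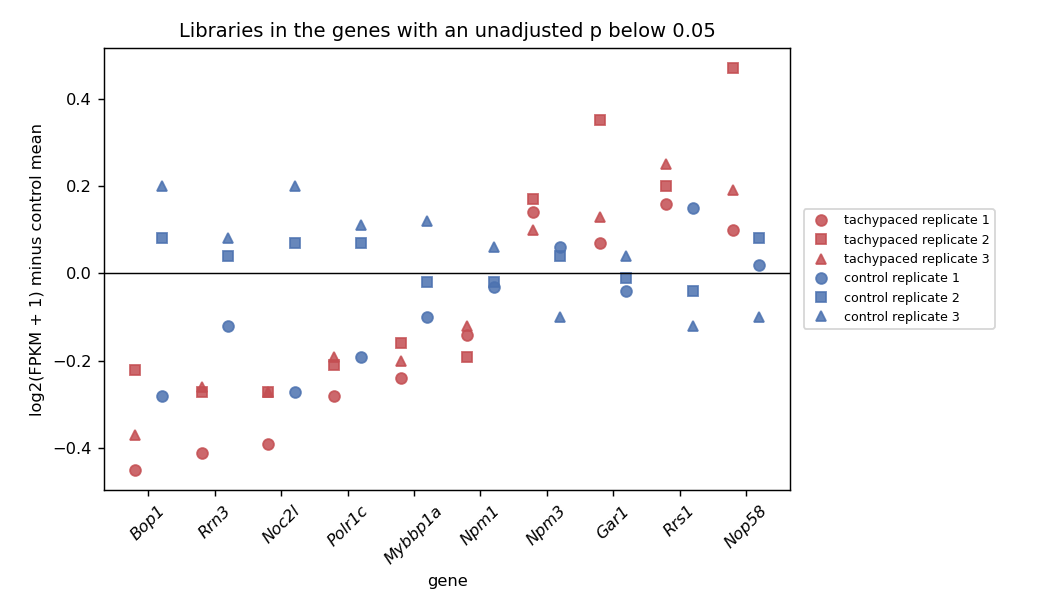
The 10 genes with an unadjusted p below 0.05, each library as log2(FPKM + 1) minus the mean of the 3 controls, tachypaced in red left of control in blue, with a marker shape per replicate. In Bop1 and Noc2l control replicate 1 lies among the tachypaced libraries, and in Nop58 and Gar1 tachypaced replicate 2 is the highest.

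Read by library, the 40 genes averaged -0.071, -0.002 and -0.033 in tachypaced replicates 1 to 3 and -0.035, -0.003 and 0.037 in control replicates 1 to 3, on the log2 scale relative to the control mean. The tachypaced and control averages overlapped. Control replicate 3 was the highest of the 6 libraries in 20 of the 40 genes, against 32.4% of all tested genes. Tachypaced replicate 1 was the lowest in 14 of the 40, against 22.6% of all. The RNA polymerase I genes averaged -0.204, -0.151 and -0.084 in tachypaced and -0.051, -0.017 and 0.069 in control libraries. The averages of the chaperone and scaffold genes were -0.063, -0.040 and -0.056 in tachypaced and -0.018, -0.022 and 0.040 in control libraries. In both role groups the averages did not overlap and none of the genes passed, and in the other 4 role groups the averages overlapped. These differences were not tested. Gene by gene, the libraries did not overlap in 2 of the 5 polymerase genes, both lower. They did not overlap in 3 of the 6 chaperone and scaffold genes, 2 lower and 1 higher. Over all tested genes the share was 34.9%.

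A longer list held 129 other genes of the pathway, chosen by function, and 127 could be tested. In tachypaced libraries 0 rose and 2 fell, or 1.57%, against 5.52% of all genes, and the median log2 fold change was -0.08. At an unadjusted p below 0.05 there were 10 higher and 35 lower, or 35.4%. Over all genes it was 30.2% (10.8% higher, 19.4% lower). Groups did not overlap in 36.2% of the 127, against 34.9% of all genes. The 2 genes that fell by the adjusted test were small subunit genes. Pno1, a partner of Nob1 on the immature small subunit (chromosome 11, 17203198 to 17211568, GRCm38), fell to 13.6, 14.3 and 15.0 FPKM in tachypaced libraries, against 17.0, 18.3 and 17.4 FPKM in control libraries. Its log2 fold change was -0.28 (SE 0.06, limma adjusted p = 0.0460). Ddx49, a nucleolar RNA helicase (chromosome 8, 70292866 to 70302489), fell to 9.07, 10.1 and 10.1 FPKM in tachypaced libraries, against 11.4, 12.5 and 13.4 FPKM in control libraries. Its log2 fold change was -0.32 (SE 0.08, limma adjusted p = 0.0475). All tachypaced values of both genes were below all control values. Both calls were lost when any library other than control replicate 1 was left out, with adjusted p between 0.0769 and 0.173, and exons of Ddx49 share 874 bases with Homer3 on the opposite strand. Without control replicate 1, 8 rose and 40 fell, or 37.8% of the 127, against 30.0% of all genes.

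Proliferation genes, which often accompany ribosome production, were set beside the 40 as a list of 20. Of these, 9 fell and 0 rose in tachypaced libraries, and the median log2 fold change was -0.38 with all 20 values negative, against 0 of 40 and -0.04 for the nucleolar genes. Over all genes 3.22% fell. Without control replicate 1, 18 of the 20 fell, against 18.8% of all genes, and without any other single library at most 1 gene of the whole table fell. Whether the lists differ was not tested. Proliferation genes averaged -0.483, -0.463 and -0.341 in tachypaced and -0.220, 0.036 and 0.185 in control libraries relative to the control mean, so control replicate 1 lay between the other controls and the tachypaced libraries. The 13 protein genes of the mitochondrial genome lay the other way, with 3 risen, against 2.30% of all genes. All 13 genes had positive log2 fold changes, with a median of 0.21. Their summed level ran from 37764 to 41242 FPKM in tachypaced and from 32725 to 35104 FPKM in control libraries, and its part in the changes of other genes was not tested.

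**Figure D4:**
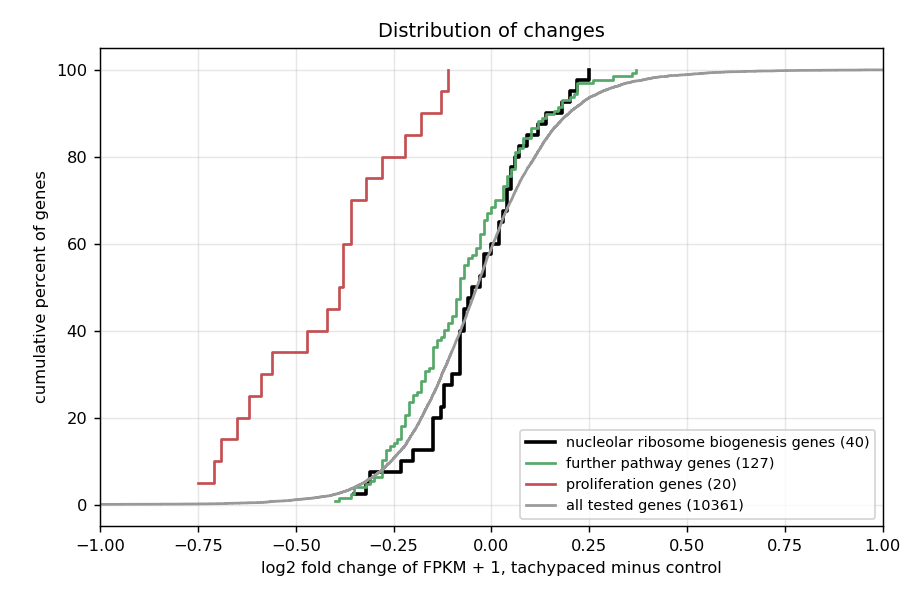
Cumulative share of genes by log2 fold change of FPKM + 1, tachypaced minus control, for the 40 nucleolar genes, 127 further pathway genes, 20 proliferation genes and all 10361 tested genes. The axis ends at -1 and 1, beyond which lie a few of the tested genes. The curve of the nucleolar genes follows that of all genes, with both medians at -0.04, and that of the proliferation genes lies to the left.

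Of the 40, 7 carry annotated small nucleolar RNAs in their bodies on the same strand (21 in GENCODE M21), which are released from introns as the host transcript is spliced. Nop56 holds 5, Nop58 4, Ncl, Gnl3 and Wdr43 3 each, Tsr1 2 and Dkc1 1. Of these 7 host genes 0 passed, and their log2 fold changes ran from -0.12 to 0.25 with a median of 0.05. The small nucleolar RNAs themselves, and ribosomal RNA precursors, were not analysed here. Of 18 noncoding host genes looked up, 1 was matched, Snhg4, with 7.23 ± 1.78 FPKM in tachypaced and 8.38 ± 3.61 FPKM in control libraries (SD, n = 3 each; limma adjusted p = 0.742).

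Copies elsewhere in the genome bear on some of these levels. Coding sequences of 13 of the 40 genes matched 31 pseudogenes at 90% identity or more over at least 200 bases. Npm1 had 8 such copies, Nop56 6, Rrs1 3, and Npm3 1 that was 99.05% identical over 524 bases. Fbl also matched transcripts of Tulp4, at 99.56% identity over 674 bases (row at a mean of 34.8 FPKM), and Wdr12 matched Vmn1r88 at 97.72% over 1269 bases (0.0955 FPKM). Of the 31 pseudogenes 0 were matched to a row of the table, and it is not stated how reads of such copies were assigned, so these levels are uncertain. Exons of 16 of the 40 genes overlap those of a gene on the opposite strand, by 1240 bases for Tsr1 and Srr, 598 for Noc2l and Samd11 and 361 for Bysl and Ccnd3. The strand setting is not stated, and without it reads of such partners cannot be told apart.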

How the data were processed

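Total RNA of 3 tachypaced and 3 control cultures was made into libraries with a SMARTER mRNA kit, per the labels' protocols. The authors deposited FPKM values, 1 row per gene name and 1 column per library. The submitters' processing notes name GRCm38 (mm10). Aligner, quantifier and annotation: not given in the sources used here. FPKM is relative to each library's total, and low values did not fall on steps of whole fragments (at most 4.22% of ratios between libraries shared a log2 bin 0.05 wide), so depth, counting intervals and detection floors are unknown. Columns were matched through the sample descriptions. No 2 libraries were identical.

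Values were transformed to log2(FPKM + 1), which understates the change of low genes, and genes whose mean reached 1 FPKM were fitted with limma 3.58.1 in R 4.3.3 (two-sided, mean-variance trend, fold changes as tachypaced minus control, without covariates), adjusted by Benjamini-Hochberg over all 10361 genes. The fit was also run on simulated data with known changes and noise drawn independently for each gene. Such data hold no deviations shared by a whole library, so that run says nothing on the dependence on control replicate 1. Positions come from GENCODE M21. Copies were searched with megablast, and motifs in RefSeq promoters. The genes and lists were chosen with earlier results of these data known. The rule for named genes gives values per library for each of the 40 that passed, otherwise for the 2 with the largest absolute change in each role, for up to 4 called genes per further list, and for Myc. Npm3, Rrs1, Pes1, Rrp1, Wdr12 and other genes given with values were picked with their values in view. Alternatives were a pseudocount of 0.1, other filters, scalings and variance models, a block for the replicate number, and each library left out in turn. Python 3.11.15 with pandas 2.3.3 and matplotlib 3.10.9 made tables and figures.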

Additional observations from a re-analysis of the deposited data

How the results depend on the processing

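Over all tested genes the counts of 238 higher and 334 lower in tachypaced libraries depended strongly on the processing. Without a filter on low values they were 0 and 0, with quantile normalization 13 and 4, and without the trend 2 and 0. The lower count became 184 with median of ratios scaling, 924 with a common FPKM total, 634 with that total taken without mitochondrial genome genes, and 591 with the replicate block. Leaving out single libraries gave 1 to 1160 higher and 0 to 1948 lower, the highest without control replicate 1, and at most 3 and 1 without any other library. The cause was not tested.

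Of the 40 nucleolar genes, 0 higher and 0 lower passed. The lower count was 1 with a pseudocount of 0.1, a minimum mean of 5 FPKM, a common total without mitochondrial genome genes, robust hyperparameters or the replicate block, each time Rrn3, and 3 with a common FPKM total (Rrn3, Npm1 and Mybbp1a). Leaving out single libraries gave 0 to 1 higher and 0 to 8 lower. The median log2 fold change of -0.04 was -0.08 with a common FPKM total and stayed between -0.06 and -0.01 under the other alternatives. That of all tested genes moved likewise, from -0.04 to -0.07 with a common FPKM total and to -0.01 with median of ratios scaling.

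Of the further pathway genes, 0 higher and 2 lower passed. The lower count was 0 without a filter, with median of ratios scaling, quantile normalization or no trend, 7 at a minimum mean of 5 FPKM, 13 with a common total, 9 with that total without mitochondrial genome genes, 5 with robust hyperparameters and 8 with the replicate block. The higher count was 3 at a minimum mean of 5 FPKM, 1 with the total without mitochondrial genome genes, 1 with robust hyperparameters and 2 with the replicate block. Leaving out single libraries gave 0 to 8 higher and 0 to 40 lower. Their median of -0.08 was -0.02 with quantile normalization, where that of all tested genes moved from -0.04 to -0.00. The log2 fold change of Myc was -0.01 with a common FPKM total and ran from -0.02 to 0.06 when single libraries were left out.

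Same-numbered deviations from the group means correlated at 0.06, -0.03 and 0.16 across genes, and differently numbered ones at -0.16 to 0.08. Deviations within a group of 3 sum to 0, so these values cannot show whether the replicate numbers pair the libraries. With the replicate block, 334 genes were called higher and 591 lower. The precision is limited by 3 libraries per group and by unknown depth.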

Other observations

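The RNA exosome trims ribosomal RNA ends and destroys faulty precursors. Of 15 genes for it and its cofactors 14 could be tested and 0 passed, with 1 higher and 4 lower at an unadjusted p below 0.05, against 30.2% of all genes (10.8% higher, 19.4% lower). Leaving out control replicate 1, 1 rose and 5 fell, where 30.0% of all genes passed. Exosc3, a cap subunit that binds RNA, stood at 11.8, 12.5 and 12.2 FPKM in tachypaced libraries and at 9.79, 10.5 and 8.60 FPKM in control libraries (log2 fold change 0.31, limma adjusted p = 0.0502). All 3 tachypaced values were above the controls. Xrn2, a nuclear exonuclease, averaged 28.1 ± 1.57 FPKM in tachypaced and 34.2 ± 2.48 FPKM in control libraries (SD, n = 3 each; log2 fold change -0.27, limma adjusted p = 0.0533).

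Of 9 genes for assembly of snoRNPs, 0 passed, with 1 higher and 3 lower at an unadjusted p below 0.05, against the same 30.2% of all genes. With control replicate 1 left out, 1 rose and 6 fell, where 11.2% of all genes rose and 18.8% fell. Ruvbl2, an ATPase of the assembly machinery that also serves chromatin remodelling, stood at 66.9, 73.6 and 72.3 FPKM in tachypaced libraries, against 78.6, 98.6 and 106 FPKM in control libraries (log2 fold change -0.40, limma adjusted p = 0.0533, and 9.26e-04 without control replicate 1). Znhit6, needed for box C/D particles, averaged 5.14 ± 0.837 FPKM in tachypaced and 3.77 ± 0.458 FPKM in control libraries (SD, n = 3 each; log2 fold change 0.36, limma adjusted p = 0.0861). Snu13, the C/D core protein that first binds the RNA, averaged 48.8 ± 2.41 FPKM in tachypaced and 41.9 ± 0.782 FPKM in control libraries (limma adjusted p = 0.0546). Among the other core genes, the groups of Nop58 did not overlap either, with tachypaced values higher, while those of Fbl and Nop56 overlapped. These genes were named after their values were seen.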
